A study of Homo sapiens with 6 samples.

Results

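The genes described here encode 10 secreted inflammatory messengers: the chemokines CXCL8, CXCL3, CXCL2 and CCL20, the gp130 cytokines IL6, LIF and IL11, the interleukins IL1A and IL1B, and the colony-stimulating factor CSF2. They were chosen by gene symbol, with earlier results of these data known. Of the 10, 9 were among the 16953 genes of the authors' deposited table. No expression value of CXCL2 was used, and only its promoter and transcript sequence are described. RNA had been sequenced in 6 samples of H1048, an established line of human small cell lung cancer that the labels call wild type. Of these, 3 were exposed for 48 h to 10 µM of the macrolide ISP-I (isovalerylspiramycin I) and 3 to its solvent DMSO, and the series' title names reactive oxygen species, DNA damage and stress of the endoplasmic reticulum.

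The authors' table compares a set of 3 libraries named D, E and F (the D-F set) with another of 3 named A, B and C (the A-C set). No label used here says which set received ISP-I, so a positive difference below means only higher in the D-F set and cannot be read as an effect of the compound. For the same reason no level per library is given, and whether the libraries of the 2 sets overlap for a gene is not shown. Each gene has a log2 fold change with its raw and adjusted p, and no standard error. Genes were called where the adjusted p was under 0.05.

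Cytokine genes of this kind are mostly silent in resting cells. Their promoters are switched on by NF-kB, AP-1 and C/EBP factors after stress or infection signals, and their mRNAs are short-lived because decay factors such as tristetraprolin bind AU-rich stretches in them. Neutrophil-attracting chemokines signal through the receptors CXCR1 and CXCR2, whereas IL6, LIF and IL11 each pair a receptor of their own with the shared subunit gp130, which activates STAT3.

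The stretches of 150 bases just before the RefSeq transcription start are shown for the 4 genes that were called higher and have an entry in the RefSeq promoter table (GRCh38.p14), because the named factors are known to act near the starts of such genes. Capitals mark matches to a core letter pattern of NF-kB or AP-1. The CXCL8 stretch is chr4:73740419-73740568 on the plus strand, that of CXCL3 is chr4:74038690-74038839 on the minus strand, that of IL6 is chr7:22727050-22727199 on the plus strand and that of IL11 is chr19:55370464-55370613 on the minus strand, each printed 5′ to 3′ along the gene. The starts are those of the RefSeq table; the gene spans given further on are those of GENCODE 29, which cover all transcripts of a gene, so the IL6 stretch lies inside its span and those of CXCL8 and CXCL3 overlap theirs.
CXCL8: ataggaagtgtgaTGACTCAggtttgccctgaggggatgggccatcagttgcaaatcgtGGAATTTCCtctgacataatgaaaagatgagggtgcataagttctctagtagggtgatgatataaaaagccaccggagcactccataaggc
CXCL3: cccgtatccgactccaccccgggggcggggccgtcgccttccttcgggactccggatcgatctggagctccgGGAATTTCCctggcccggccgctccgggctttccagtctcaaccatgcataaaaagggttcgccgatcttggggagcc
IL6: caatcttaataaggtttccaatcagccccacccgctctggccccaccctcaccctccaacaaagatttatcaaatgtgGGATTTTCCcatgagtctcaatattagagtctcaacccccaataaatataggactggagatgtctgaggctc
IL11: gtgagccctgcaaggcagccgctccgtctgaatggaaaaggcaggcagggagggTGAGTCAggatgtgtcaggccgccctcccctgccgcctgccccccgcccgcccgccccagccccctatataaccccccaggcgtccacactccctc

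The 3 stretches of CXCL8, CXCL3 and IL6 hold the NF-kB pattern GGANNTTCC, and those of CXCL8 and IL11 hold the AP-1 pattern TGANTCA. The NF-kB match lies 91 to 83 bases before the start in CXCL8, 78 to 70 bases before it in CXCL3 and 72 to 64 bases before it in IL6. CXCL8 and CXCL3 carry the same letters there, GGAATTTCC, and CXCL2 carries them too, 77 to 69 bases before its start.

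**Figure D1:**
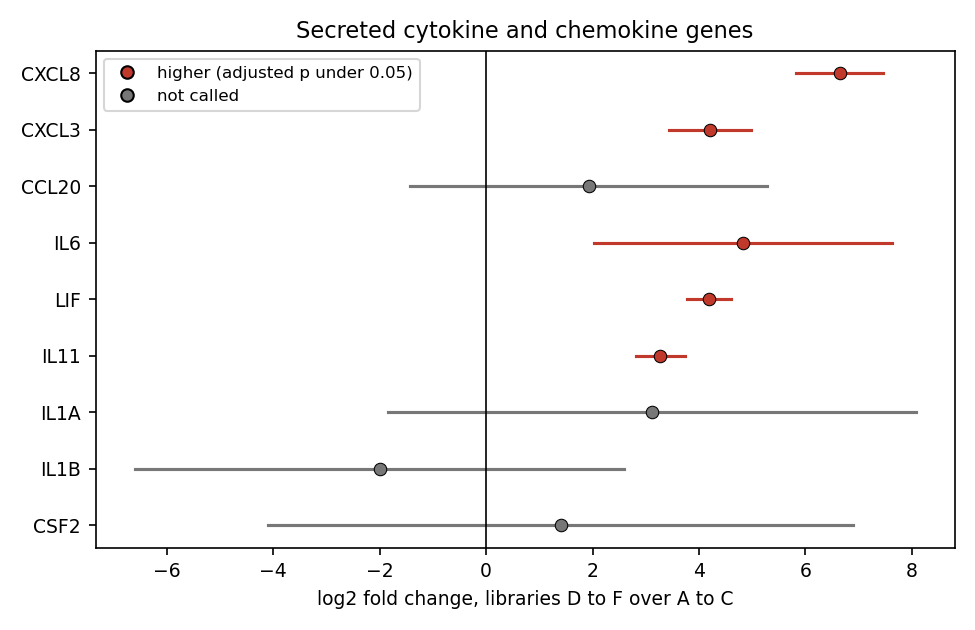
Log2 fold change of each gene between the D-F and A-C sets in the authors' deposited table (points), in the order chemokines, gp130 cytokines, interleukins, CSF2. Lines are the 95% intervals that a Wald test would imply; the 5 genes called higher lie between 3.27 and 6.64, and the intervals of the 4 genes not called include 0.

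Of the 9 measured genes, 5 were higher in the D-F set and none was lower, namely CXCL8, CXCL3, IL6, LIF and IL11. Over all 15976 genes with an adjusted p, 57.6% were called in either direction, so a share of 55.6% of the 9 genes is near the background and is no result about them. The direction and size stood further from it: 29.7% of all genes were called higher and 27.9% lower. With a minimum of 2-fold the shares were 12.8% higher and 11.3% lower, and with 8-fold they were 3.22% higher and 0.807% lower. All 5 called cytokine genes were at least 8-fold higher. The median log2 fold change was 3.27 over the 9 genes and 0.05 over all genes with an adjusted p. The genes were chosen with earlier results of these data known, and the 8-fold limit after the values were seen. These shares and medians are therefore only a description of the genes chosen.

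**Figure D2:**
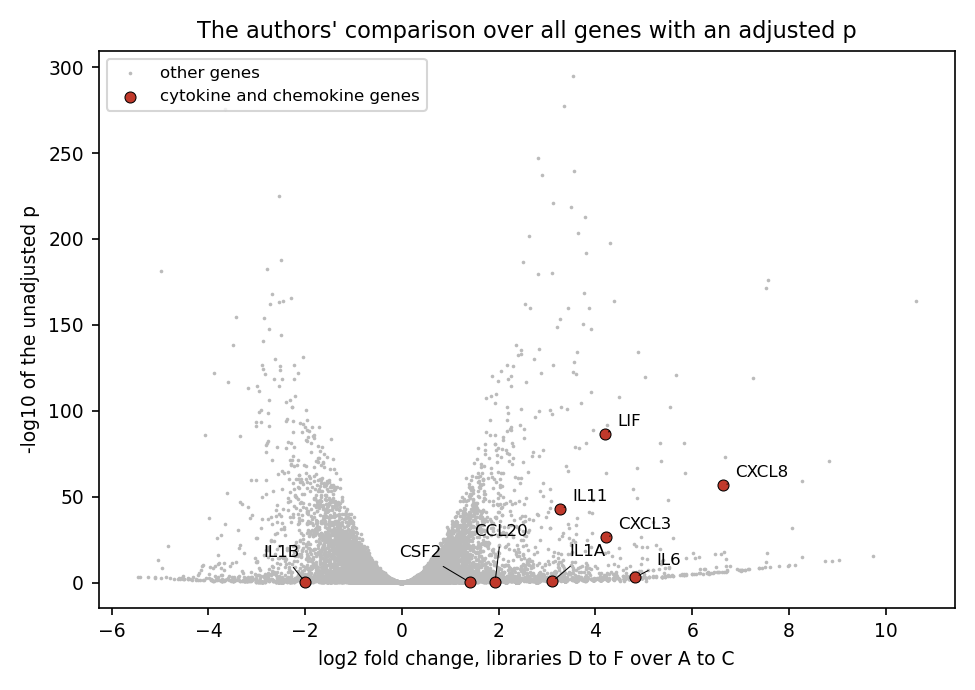
Log2 fold change (horizontal) against −log10 of the unadjusted p (vertical) for every gene of the authors' deposited table that has an adjusted p, with the cytokine and chemokine genes in red; 10 genes whose p is listed at 0 are left out. LIF, CXCL8, IL11 and CXCL3 stand well above the base of the plot, and IL6 lies far to the right (log2 fold change 4.82) but near the base.

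CXCL8, the neutrophil chemokine also called interleukin-8, had the largest difference of the 9 genes. It was 99.5-fold higher in the D-F set (log2 fold change 6.64, adjusted p = 1.48e-55, from the authors' deposited table; GRCh38 chromosome 4, 73740506 to 73743716), the 46th highest fold change of all genes with an adjusted p. CXCL3, a chemokine for the same receptor CXCR2, was 18.5-fold higher (log2 fold change 4.21, adjusted p = 7.97e-26; chromosome 4, 74036589 to 74038807). Since RNA was taken from whole samples, a change in the number of producing cells and a change in RNA per cell cannot be told apart. CXCL3 is closely related to CXCL1 and CXCL2. Of 1026 windows of 50 bases along its longest protein-coding transcript in GENCODE 29, 5.26% occur unchanged in that of CXCL2 and 0.585% in that of CXCL1, so most of the transcript can be told apart from its relatives.

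CCL20, which attracts cells that carry the receptor CCR6, was not called (log2 fold change 1.93, adjusted p = 0.346, from the authors' deposited table). The table gives no standard error, but if the p-values came from a Wald test, DESeq2's default, they imply one. On that reading CCL20 had a standard error of 1.71 and a 95% interval of -1.43 to 5.28 on the log2 scale. CXCL8 had an implied standard error of 0.42 and an interval of 5.82 to 7.45, and CXCL3 one of 0.39 and 3.44 to 4.98. The intervals of CXCL8 and CXCL3 do not overlap, whereas that of CCL20 covers both no change and a difference larger than the one measured for CXCL3.

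CXCL8 and CXCL3 lie at either side of the CXC chemokine cluster of chromosome 4, which spans 359.0 kb and 9 protein-coding genes from CXCL8 to CXCL2. No other gene of the cluster had an adjusted p. In the authors' deposited table CXCL1, CXCL5 and PF4 had none. The fold change listed for CXCL1 and CXCL5 is the same to 3 decimals in 377 genes, and that of PF4 in 24 genes. These fold changes are therefore not particular to CXCL1, CXCL5 or PF4, and no level was used that could show how far those genes were expressed. No values of CXCL6, PF4V1, PPBP or CXCL2 were used here. The calls of CXCL8 and CXCL3 therefore do not show what the rest of the cluster did.

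**Figure D3:**
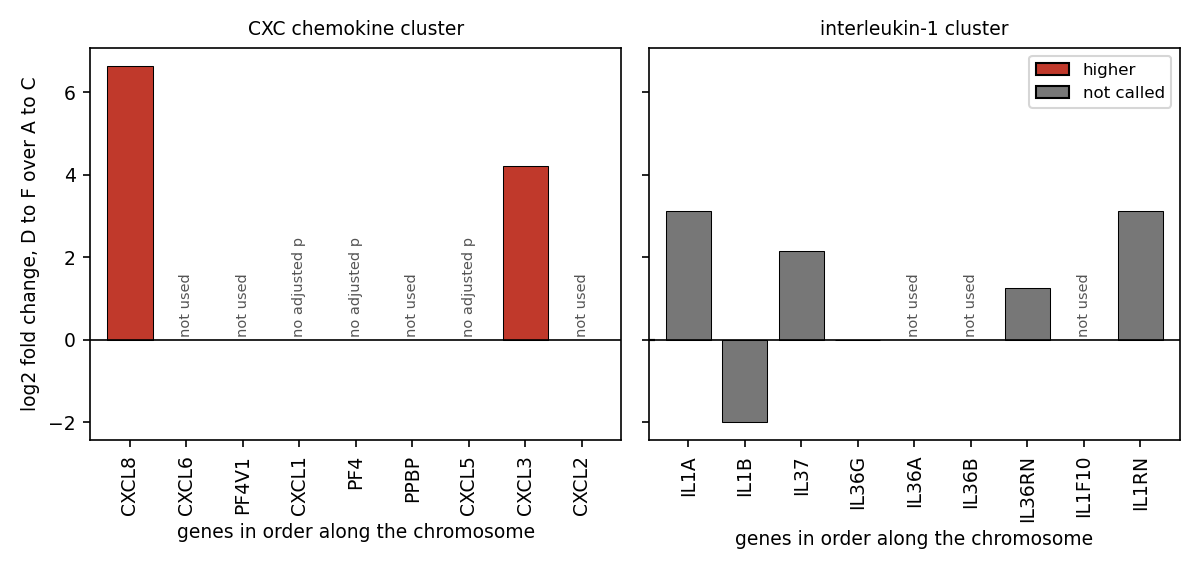
Log2 fold change between the D-F and A-C sets for the genes of the CXC chemokine cluster (left) and the interleukin-1 cluster (right), in their order along the chromosome. CXCL8 and CXCL3 are the called genes; no gene of the interleukin-1 cluster was called, and genes without a usable value are marked.

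IL6, LIF and IL11 were all higher in the D-F set. LIF, known for holding stem cells undifferentiated, was 18.3-fold higher and had the smallest p of the 9 genes (log2 fold change 4.19, adjusted p = 3.04e-85, from the authors' deposited table; chromosome 22, 30240447 to 30246851). IL11, a cytokine of stromal and epithelial cells, was 9.68-fold higher (log2 fold change 3.27, adjusted p = 3.89e-42; chromosome 19, 55364389 to 55370463). IL6, an inducer of the acute phase response, had the larger fold, 28.3, with far weaker evidence (log2 fold change 4.82, adjusted p = 0.00173; chromosome 7, 22725884 to 22732002).

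The implied standard error was 0.21 for LIF, 0.24 for IL11 and 1.43 for IL6, and the 95% intervals were 3.78 to 4.61 for LIF, 2.81 to 3.74 for IL11 and 2.02 to 7.63 for IL6. The interval of IL6 contains those of LIF and IL11 whole, so the order of IL6 among the 3 genes is not resolved, whereas those of LIF and IL11 lie apart. Oncostatin M, OSM, the gp130 cytokine next to LIF on chromosome 22, had a log2 fold change of 3.78 and was not called (adjusted p = 0.106). CLCF1, another cytokine of the family, was 2.23-fold higher (adjusted p = 8.79e-09), and CTF1, cardiotrophin, was not called (log2 fold change -0.25, adjusted p = 0.782).

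Neither interleukin-1 gene was called. IL1A, which encodes the form that is active without cleavage, had a log2 fold change of 3.11 (adjusted p = 0.298, from the authors' deposited table; chromosome 2, 112773915 to 112784590). IL1B, which encodes the form released after cleavage by caspase-1, had one of -2.00 (adjusted p = 0.484; chromosome 2, 112829751 to 112836903). The implied standard errors were 2.53 for IL1A and 2.35 for IL1B, and the 95% intervals, -1.85 to 8.07 for IL1A and -6.60 to 2.59 for IL1B, overlap, so the opposite signs of these genes are not resolved.

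The interleukin-1 cluster of chromosome 2 held no called gene. The antagonist IL1RN had a log2 fold change of 3.12 (adjusted p = 0.29), and IL37, IL36G and IL36RN were not called either. CSF2, which encodes the granulocyte and macrophage growth factor GM-CSF (chromosome 5, 132073790 to 132076170), had a log2 fold change of 1.40 (adjusted p = 0.692) with an implied standard error of 2.80, the widest of the 9 genes. The implied intervals of IL1A, CSF2 and CCL20 include both 0 and the value of IL11, 3.27, whereas that of IL1B includes 0 and ends below it.

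Receptors of these cytokines went in both directions: of 10 with an adjusted p among 13 listed, the antagonist IL1RN included, 4 were higher and 2 lower (median log2 fold change 0.65, against 0.05 over all genes). The share called, 60.0%, is near the 57.6% of all genes and is no result about receptors. Higher were 40.0%, against 29.7% of all genes. IL6R, the binding subunit for IL6, was 40.1-fold higher in the D-F set (log2 fold change 5.33, adjusted p = 6.96e-80, from the authors' deposited table), with an implied standard error of 0.28. The shared subunit gp130, gene IL6ST, was 1.61-fold higher (adjusted p = 1.12e-11). LIFR, the partner for LIF, had a log2 fold change of -0.13 and was not called (adjusted p = 0.432), and IL11RA, the binding subunit for IL11, was 2.05-fold lower (adjusted p = 1.51e-05). Of the binding partners of the 3 gp130 cytokines, 1 was therefore higher, 1 lower and 1 not called.

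The signalling receptor for interleukin-1, IL1R1, was 3.22-fold lower in the D-F set (adjusted p = 7.14e-18, from the authors' deposited table). The decoy receptor IL1R2, which binds the cytokine without signalling, was 16.0-fold higher (adjusted p = 0.019). Its size is poorly resolved, with an implied 95% interval of 0.96 to 7.04 on the log2 scale. The accessory chain IL1RAP was 1.54-fold higher (adjusted p = 1.84e-09). CXCR2, the receptor for CXCL8 and CXCL3, was not called (log2 fold change -0.11, adjusted p = 0.975), and its implied 95% interval, -4.90 to 4.68, covers large differences either way. CXCR1 had no adjusted p, CCR6 was not called (log2 fold change 1.62, adjusted p = 0.242), and the CSF2 receptor chains CSF2RA and CSF2RB were not analysed here.

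**Figure D4:**
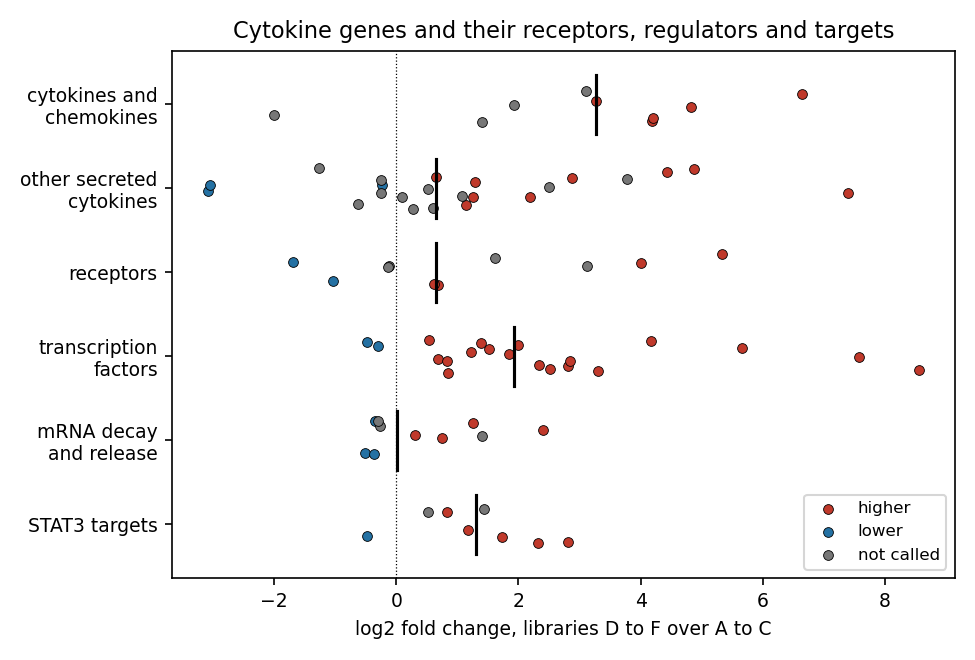
Log2 fold changes between the D-F and A-C sets in the authors' deposited table for the cytokine and chemokine genes and 5 related lists; each point is a gene with an adjusted p, its colour gives the call and vertical bars are medians. The medians run from 0.02 for mRNA decay and release factors to 3.27 for the cytokines and chemokines.

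Other secreted cytokines were more mixed. Of 36 listed, 23 had an adjusted p, of which 9 were higher and 3 lower, with a median log2 fold change of 0.65. The share called, 52.2%, is near the 57.6% of all genes, and 39.1% were higher, against 29.7% of all genes. The chemokine CXCL11, a ligand of CXCR3, was the most different, at 168-fold higher (log2 fold change 7.39, adjusted p = 2.27e-08, from the authors' deposited table), with an implied standard error of 1.27. Higher by at least 2-fold were also the monocyte chemokines CCL7 (log2 fold change 4.88) and CCL2 (2.88), IL32 (4.43), IL16 (2.19), the interleukin-12 family subunits IL12A (1.29) and IL23A (1.26), and CLCF1 (1.15). The alarmin IL33 (-3.04, adjusted p = 1.94e-05) and the chemokine CXCL14 (-3.08, adjusted p = 0.0195) were lower. The interferon-induced chemokine CXCL10, which shares a receptor with CXCL11, was not called (-0.63, adjusted p = 0.831).

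A list of transcription factors that act on such promoters also holds the NF-kB inhibitor NFKBIA (0.84, higher). Of its 20 genes, 18 were higher and 2 lower, with a median log2 fold change of 1.92 against 0.05 over all genes. Among all genes with an adjusted p, 29.7% were called higher and 27.9% lower. The list was chosen with earlier results of these data known, so its counts and median are only a description. The immediate early factor EGR1 (log2 fold change 8.56) and the AP-1 subunits FOS (7.57), FOSL1 (5.66), JUN (4.17) and FOSB (3.31) had the 5 largest differences of the list in the authors' deposited table. Other AP-1 subunits followed with JUNB at 2.81, FOSL2 at 2.34 and JUND at 1.85, and the stress factor ATF3 was at 2.84. NF-kB subunits ranged from REL at 0.54 and RELA at 0.69 to NFKB2 at 1.39, NFKB1 at 1.52 and RELB at 1.99. The C/EBP factors CEBPD (2.51) and CEBPB (1.22) were higher, and the members lower were NFKBIZ (-0.48), which assists NF-kB at the IL6 promoter, and STAT3 (-0.30). These factors were differentially expressed in the same comparison, and no link between them and the cytokine genes was tested.

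Genes that set how long cytokine mRNAs last, or how the proteins are released, were divided, 4 higher and 3 lower of 10 with an adjusted p (median log2 fold change 0.02). Over all genes 29.7% were called higher and 27.9% lower, with a median of 0.05. The division is therefore near the background and is no result about these genes. ZFP36, which encodes tristetraprolin, was 5.29-fold higher (adjusted p = 5.01e-60, from the authors' deposited table), and its relatives ZFP36L2 (2.39-fold) and ZFP36L1 (1.68-fold) were higher as well. The endonuclease regnase, gene ZC3H12A, which cleaves IL6 mRNA, was lower by a small amount (-0.51 on the log2 scale, adjusted p = 0.0355), as were the AU-rich element binding proteins HNRNPD (-0.37) and ELAVL1 (-0.34). The shedding protease ADAM17 was 1.23-fold higher (adjusted p = 0.0147). CASP1, the protease that matures interleukin-1 beta, was not called (log2 fold change 1.41, adjusted p = 0.392).

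Genes that STAT3 is known to induce below gp130 were higher in 5 of 8 with an adjusted p and lower in 1 (median log2 fold change 1.31). The share higher was 62.5%, against 29.7% of all genes, and the share called 75.0%, against 57.6%. JUNB, which is also among the factors above, MCL1 (1.73), BCL6 (2.32) and PIM1 (1.17) passed at least 2-fold, and SOCS3, the feedback inhibitor of gp130, was 1.77-fold higher (adjusted p = 0.000442, from the authors' deposited table). IL4R was lower (-0.47). SOCS1 (0.52, adjusted p = 0.374) and FGL1 (1.44, adjusted p = 0.332) were not called, and LBP had no adjusted p. Whether gp130 cytokines had a part in these differences was not tested.

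The promoter table held 9 of the 10 cytokine genes, one window of 250 bases before to 50 after the start each; LIF is named only. On either strand the NF-kB pattern GGANNTTCC was in 5 of the 9, those of CXCL8, CXCL3, CXCL2, IL6 and CSF2, against 4.59% of 27305 promoters. The AP-1 pattern TGANTCA was in 3 of 9, those of CXCL8, IL11 and IL1A, against 7.76%. The C/EBP pattern TTGCNNAA was in 3 of 9, those of CXCL2, IL6 and IL1B, against 10.6%. The CRE pattern TGACGTCA (1.98% of all promoters) and the EGR pattern GCGNGGGCG (9.28%) were in none, and no matches overlapped in these 9 promoters. The NF-kB pattern did not separate called from uncalled genes, since it was also in CSF2, and IL11 was called without it. The letters of the patterns were set after these promoters had been read, so their shares are a description, and a match is not a bound site.

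Cytokine mRNA can also come from other cell types. No level is used here, and a difference between the sets cannot show which cell types were present, so the labelled line was not checked. The marker counts are only a description. Of 7 leukocyte markers with an adjusted p, 2 were higher in the D-F set, LYZ (log2 fold change 4.90) and ITGAM (5.04), and none was lower in the authors' deposited table; the pan-leukocyte marker PTPRC was not called (0.19, adjusted p = 0.928). Of 6 fibroblast markers 1 was higher and 3 lower, and of 3 endothelial markers none was called. Of 8 tuft cell-like markers 1 was higher and 4 lower, and of 4 neuroendocrine markers 2 were higher and 1 lower. Called in either direction were 28.6% of the leukocyte, 66.7% of the fibroblast and 0.0% of the endothelial markers, against 57.6% of all genes. The shares were 62.5% for the tuft cell-like and 75.0% for the neuroendocrine markers. Higher were 28.6% of the leukocyte markers, near the 29.7% of all genes, so that count is no result about leukocytes. The part of these cell types in the cytokine differences was not tested.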

How the data were processed

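RNA was sequenced from 3 ISP-I and 3 DMSO samples. Per the submitters' processing notes, the tools were STAR, HTSeq, Trimmomatic and DESeq2, on build hg38; their versions, the annotation, strand use and any shrinkage of fold changes are not given in the sources. The authors deposited 2 tables of their comparison, with the log2 fold change of each gene and its raw and adjusted p-value, per the file headers. A positive value was read as higher in the D-F set, since the table names that set first. The smaller table is the part of the larger one with p under 0.05 and at least 2-fold (4021 genes, identical values). In the larger, 977 genes with an adjusted p of exactly 1 were treated as having none; the other 15976 equal a Benjamini-Hochberg adjustment over those genes.

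Since the library letters appear in no label, 36 columns of values per library were not used, depth per sample is not given, and the count test that the design allowed for was not run. The sources call the samples of a group biological replicates.

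The genes, the 10 related and marker lists and the motif letters were chosen with earlier results of these data known. All members were named; of the related lists, genes called at least 2-fold could be named, the largest first, as could those acting directly on a member, and marker lists are given mainly as counts. Implied standard errors are the log2 fold change divided by the normal quantile of its p and assume an unshrunken Wald test. Calls, implied errors and a search for the EGR pattern were tested on simulated data. The simulated p-values came from a Wald formula, so the check cannot show that the authors' p-values did. Positions are GENCODE 29 (GRCh38). The work used scipy 1.17.1, numpy 2.4.6 and pandas 2.3.3 in Python 3.11.15. Alternatives were an adjusted p under 0.01, a 2-fold minimum, the authors' smaller table, median centring and a promoter window without the 50 bases after the start.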

Additional observations from a re-analysis of the deposited data

How the results depend on the processing

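Of 73 counts recomputed with other thresholds, centring or windows, 64 stayed within 1.5 times the reported one. Among them were the 5 cytokine and chemokine genes higher and the 0 lower under each alternative run, and the 5 promoter counts. The 5 genes could not drop out, since their adjusted p was at most 0.00173 and their log2 fold change at least 3.27. Median centring shifted fold changes by 0.06 and left the adjusted p unchanged, so its 22 unchanged counts could hardly have moved. Counts of 0 that stayed 0 are included, so the total is no measure of robustness. At an adjusted p under 0.01, the other cytokines lower numbered 1 in place of 3 and the transcription factors lower 1 in place of 2. With a 2-fold minimum, the receptors higher numbered 2 in place of 4 and the decay and release factors higher 2 in place of 4. With it 0 remained of the transcription factors lower (2 reported), the decay and release factors lower (3 reported), the STAT3 targets lower (1 reported), the tuft markers higher (1 reported) and the neuroendocrine markers lower (1 reported); the 2-fold minimum itself removes small differences. No paired analysis was possible because no label ties the values per library to samples or replicate numbers, and for the same reason no library was left out in turn and no count model, other scaling or filter on low counts was run. The depth behind each gene is unknown here, so the wide implied intervals of CCL20, IL1A, IL1B, CSF2 and IL6 were not set against their counts.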
